A study of Mus musculus with 4 samples.

Results

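Immediate early genes are transcribed within minutes of a stimulus, without new protein synthesis, and their mRNAs decay quickly. The 10 genes described here were chosen as AP-1, EGR and other genes of this class: Fos, Fosb, Jun, Junb, Jund, Egr1, Egr2, Ier2, Atf3 and Nr4a1. They are 10 of the 18194 genes named on the array, and they were covered by 13 probe sets. Where a gene had several probe sets, the main probe set is the one with the highest average log2 signal over the arrays. The FOS and JUN proteins pair to form AP-1, a transcription factor complex, while EGR1 and EGR2 are zinc finger factors and NR4A1 is an orphan nuclear receptor. In blood-forming cells these genes are known both as a mark of quiescent stem cells and as genes that respond to tissue dissociation and sorting.

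RNA came from LSK (Lin-Sca-1+c-Kit+) cells of the bone marrow, a sorted fraction that contains blood stem cells and multipotent progenitors. The hosts were C57BL/6 mice that carried a fetal liver graft of necdin null (2 arrays) or wild type (2 arrays) origin. All of the mice had received a sublethal irradiation of 6.5 Gy, so no unirradiated sample enters the comparison. The sources used here do not give the age and sex of the mice, the necdin allele, the host cells that remained or the time from irradiation to collection. The labels do not say whether the replicates came from separate animals or pools, so p-values reflect only how these arrays vary. Sex-linked signal differed between replicates 1 and 2 of each genotype. Xist was 4841 and 76.8 in necdin null, and the Y-linked Eif2s3y was 32.6 and 1974 in wild type. The 2 arrays of a genotype were therefore not repeats of the same RNA sample, though part of the spread may still be technical. With 2 arrays in a group, precision is limited by their number.

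Ndn, which encodes necdin, checked the labels: its main probe set, 1437853_x_at, gave a signal of 55.4 and 105.0 in necdin null replicates 1 and 2, against 253 and 255 in wild type replicates 1 and 2. Its 4 other probe sets that passed the filter on low values also had both necdin null arrays below both wild type arrays. The LSK gate was visible in Kit, with 6049, 3744, 6617 and 3976 in the same order of arrays. Cd34 (13407 to 15252) and Flt3 (2845 to 4614) were also high on all 4 arrays. Ly6a, which encodes Sca-1, was not analysed here. The T cell markers Cd3e, Cd3g and Cd3d and the stromal and endothelial markers Col1a1, Col3a1 and Cdh5 had means below that filter, which lies at a signal of 30.3. Other genes of those lists passed it: Il7r (168 to 1047) and Nkg7 (3047 to 4045), which T, NK and progenitor cells can express, and Pecam1 (85.2 to 149), Col1a2 (41.3 to 98.6), Cxcl12 (14.1 to 61.6) and Kdr (11.5 to 64.0). Neutrophil granule genes were not low: all 12 listed passed the filter, with S100a8 between 14736 and 55148. The ratio of 3' to 5' signal, which grows as RNA is degraded or amplified short, was 15.8 for Gapdh on necdin null replicate 2 and between 9.96 and 11.7 on the other 3 arrays. For Actb it was 14.5 on that array and 9.21, 9.97 and 12.4 on the others.

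None of the 10 genes separated necdin null from wild type cells: the 2 arrays of one genotype overlapped those of the other for each main probe set. Among all genes tested, 30.5% had genotypes that did not overlap (31.1% without the filter). The arrays differed along other lines. Fos was higher and Ier2 lower on both replicate 2 arrays. Junb was high on wild type replicate 2 alone, and Egr2 on necdin null replicate 1 alone. Egr1, Jun and Nr4a1 were highest on necdin null replicate 2 and wild type replicate 1, whereas Jund, Fosb and Atf3 were highest on the opposite arrays, necdin null replicate 1 and wild type replicate 2.

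**Figure D1:**
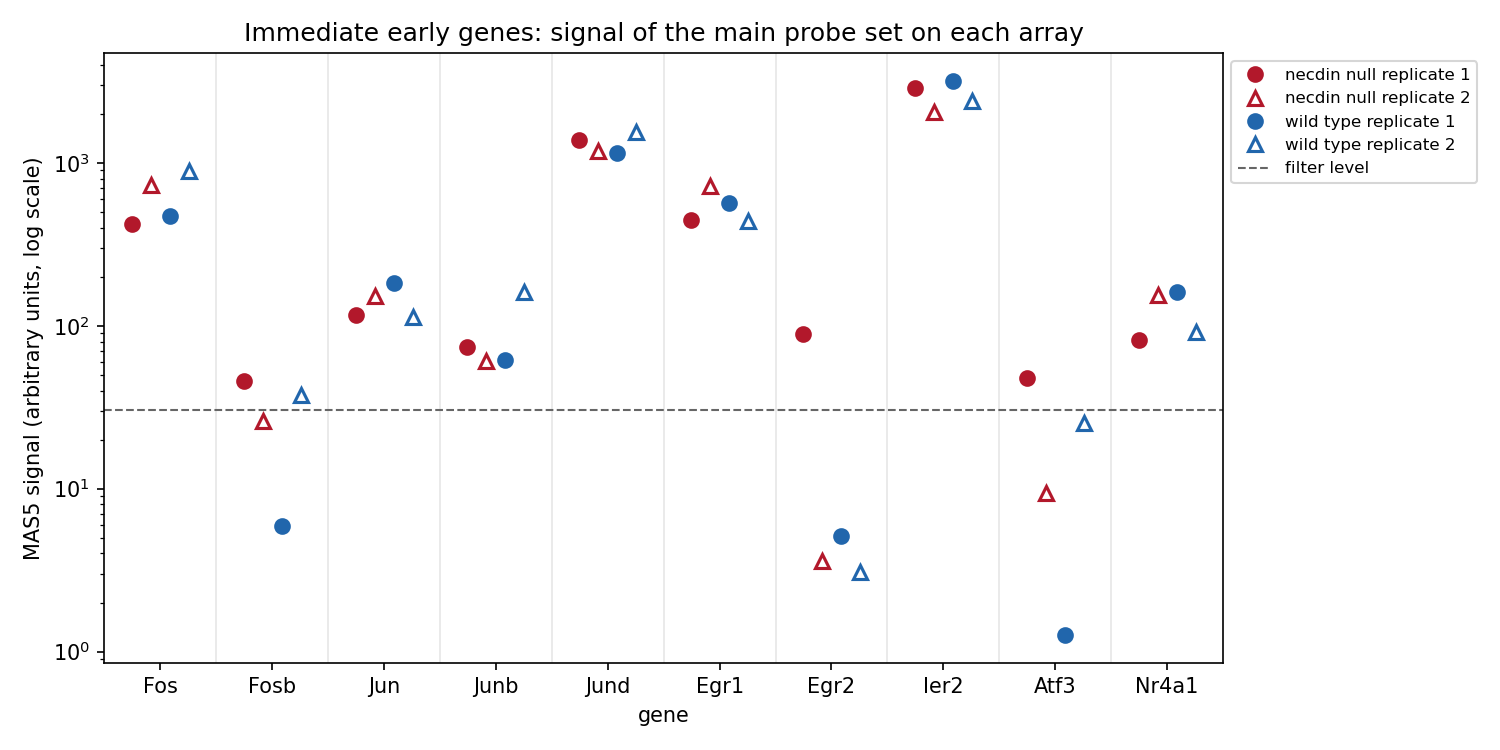
MAS5 signal (arbitrary units, log scale) of the main probe set of each of the 10 immediate early genes on each array; red marks necdin null, blue wild type, filled circles replicate 1 and open triangles replicate 2, and the dashed line is the filter on low values at 30.3. The triangles of Fos (731 and 895) lie above its circles (420 and 471), and only 1 of the 4 Egr2 points, at 89.4, lies above the line.

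Fos, the AP-1 subunit that dimerizes with JUN proteins, gave a signal of 420 and 731 in necdin null replicates 1 and 2 and of 471 and 895 in wild type replicates 1 and 2. Both replicate 2 arrays were thus above both replicate 1 arrays, and the genotypes overlapped. By genotype the means were 575 ± 219.8 in necdin null and 683 ± 299 in wild type cells (SD, n = 2 each). The log2 difference, necdin null minus wild type, was -0.23 with a standard error of 0.38 and a 95% interval from -1.09 to 0.63 (limma adjusted p over all genes = 0.999). By replicate number the means were 813 ± 116 for replicate 2 and 446 ± 36.2 for replicate 1 (SD, n = 2 each). That log2 difference, replicate 2 minus replicate 1, was 0.86 with a standard error of 0.23 (interval 0.33 to 1.39, unadjusted p = 0.0056, limma adjusted p = 0.41), so it did not pass over all genes. It was 0.79 within necdin null and 0.92 within wild type cells. Without each array in turn it lay between 0.71 and 1.00, and over all alternatives the adjusted p ranged from 0.19 to 0.64. Of the genes tested, 22.8% had a wider range over the 4 arrays than Fos (1.08 on the log2 scale).

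The 250 bases before the RefSeq start site of Fos (GRCm38.p6, chr12:85473640-85473889, plus strand) are shown because this promoter is the textbook target of serum response factor and CREB, and because Fos had the largest share of variation by replicate number among the 10 genes. Capitals mark the CRE core TGACG, which CREB and ATF proteins can bind; it occurs 2 times in this window.
Fos: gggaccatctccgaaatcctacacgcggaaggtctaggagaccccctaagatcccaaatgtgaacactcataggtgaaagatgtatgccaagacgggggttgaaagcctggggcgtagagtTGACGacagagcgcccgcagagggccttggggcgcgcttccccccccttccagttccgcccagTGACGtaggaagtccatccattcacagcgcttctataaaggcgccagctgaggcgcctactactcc
No CArG box, the site of serum response factor, lies in these 250 bases, which says nothing of sequence farther upstream.

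Fosb, a paralogue of Fos, was low throughout. Its single probe set gave 46.0 and 25.9 in necdin null replicates 1 and 2 and 5.87 and 37.8 in wild type replicates 1 and 2. Wild type replicate 1 was the lowest array, the other 3 lay near the filter, and the mean fell below it, so Fosb was not tested. Its log2 difference by genotype, 0.94, was -0.11 without wild type replicate 1.

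Jun, the founding member of its family, was measured by a pair of probe sets that ran in opposite directions. The main one, 1417409_at, gave 117 and 153 in necdin null and 182 and 113 in wild type replicates 1 and 2. The other, 1448694_at, gave 179.7 and 80.8 in necdin null and 52.7 and 183 in wild type replicates 1 and 2. The arrays that were high in one were low in the other, although both probe sets passed the filter and carry the same accession. The log2 difference by genotype was -0.10 with a standard error of 0.45 in the main probe set and 0.28 with a standard error of 0.68 in the other, and both are within the spread between replicates. No statement on Jun mRNA can rest on either probe set alone.

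Junb, a JUN protein that restrains stem cell proliferation in mouse models, gave 73.7 and 61.1 in necdin null and 61.9 and 162 in wild type replicates 1 and 2. Wild type replicate 2 stood 1.26 above the mean of the other 3 arrays on the log2 scale, while those 3 spanned a signal of 61.1 to 73.7. The log2 difference by genotype was -0.56 with a standard error of 0.59 (interval -1.89 to 0.78), and without wild type replicate 2 it was 0.11. The difference by replicate number likewise went from 0.54 to -0.14 without that array.

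Jund, the JUN protein associated with resting cells, had the narrowest range of the 10. Its main probe set, 1449117_at, gave 1386 and 1179 in necdin null and 1144 and 1553 in wild type replicates 1 and 2, a range of 0.44 on the log2 scale that 70.7% of tested genes exceeded. The log2 difference by genotype was -0.060 with a standard error of 0.23 (interval -0.58 to 0.46). The other Jund probe set, 1440265_at, read 36.5 and 29.3 in necdin null, above the 19.7 and 16 of wild type cells. It was the only 1 of the 13 probe sets whose genotypes did not overlap, with a log2 difference of 0.76, but its mean lay below the filter and it was not tested.

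Atf3, a stress-induced repressor that pairs with JUN proteins, gave 47.9 and 9.38 in necdin null and 1.27 and 25.4 in wild type replicates 1 and 2. Only necdin null replicate 1 exceeded the filter level, and the gene was not tested. Its 3.35 range on the log2 scale was exceeded by 0.915% of tested genes, but it lies where small signals make large log ratios, and the genotype difference of 1.10 was 0.12 without necdin null replicate 1 and -0.16 when wild type replicate 1 was left out.

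**Figure D2:**
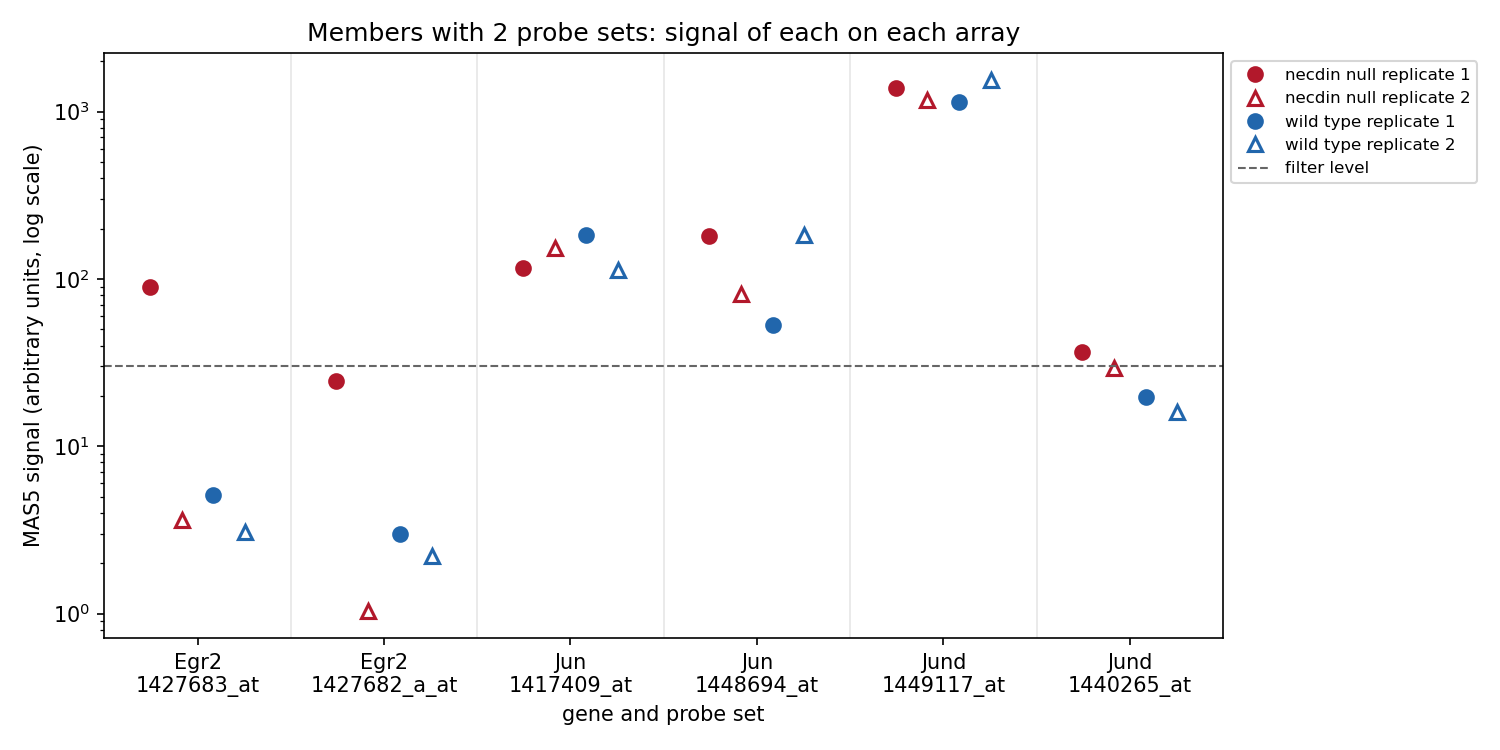
MAS5 signal (arbitrary units, log scale) of every probe set of the 3 members that had over 1, on each array; colours, symbols and the dashed filter line at 30.3 mark genotype, replicate and low signal as in the plot of main probe sets. The Egr2 probe sets share a high point on necdin null replicate 1, while the Jun probe sets mirror each other (182 against 52.7 on wild type replicate 1).

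Egr1, a zinc finger factor that keeps stem cells in their niche in mouse models, gave 445 and 717 in necdin null and 568 and 439 in wild type replicates 1 and 2. Necdin null replicate 2 was the highest array, and the wild type values lay within the necdin null range except for 439, just under 445. The log2 difference by genotype was 0.18 with a standard error of 0.31 (interval -0.54 to 0.89). It was -0.17 without necdin null replicate 2 and -0.0084 when wild type replicate 2 was left out. By replicate number the difference was 0.16 with a standard error of 0.30.

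Egr2, best known for its part in myelination and in lymphocyte tolerance, was near background on 3 arrays and not on the fourth. Its main probe set, 1427683_at, gave 89.4 and 3.62 in necdin null and 5.14 and 3.07 in wild type replicates 1 and 2. Its other probe set, 1427682_a_at, gave 24.7 and 1.03 against 2.97 and 2.20. In both, necdin null replicate 1 was the highest array, 3.60 above the mean of the other 3 on the log2 scale in the main probe set. A range wider than the 3.76 of Egr2 was found in 0.489% of tested genes. Those genes passed the filter, and small signals like those of Egr2 make large log ratios. The mean was below the filter, so Egr2 was not tested, and without necdin null replicate 1 its genotype difference went from 1.75 to -0.079. Necdin null replicate 2 did not share the high value.

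Of the 5 start sites that RefSeq lists for Egr2, 4 have a CArG box within the 250 bases before them, against 1.47% of the 32851 promoter windows of that length. They hold 2 different boxes: 3 neighbouring start sites share the one printed here, and the fourth has another, farther upstream, which is CCTTTTTTGG. A stretch of 30 bases around the shared box (GRCm38.p6, chr10:67537787-67537816, plus strand) is shown because serum response factor is known to regulate Egr2 through such boxes. Capitals mark the shared CArG box.
Egr2: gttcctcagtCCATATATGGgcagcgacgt

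Nr4a1, an orphan nuclear receptor induced by many stimuli and linked to stem cell quiescence, gave 82.3 and 154 in necdin null and 162 and 92.1 in wild type replicates 1 and 2. The high arrays were necdin null replicate 2 and wild type replicate 1, each close to the other, and the low arrays were likewise close. The log2 difference was -0.11 with a standard error of 0.52 by genotype and 0.041 with a standard error of 0.50 by replicate number, and 97.95% of the variation between arrays was in neither. Within replicate 1 the necdin null array was 0.95 lower and within replicate 2 it was 0.72 higher than wild type on the log2 scale.

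The window before the Nr4a1 start (GRCm38.p6, chr15:101266596-101266845, plus strand) is shown beside that of Fos because the 2 genes varied along different arrays and both have the CRE core. It holds 4 copies of that core, all on the opposite strand (CGTCA), which 0.137% of windows reach, and 1 match to the EGR motif GCGNGGGCG, also on the opposite strand. Capitals mark these matches.
Nr4a1: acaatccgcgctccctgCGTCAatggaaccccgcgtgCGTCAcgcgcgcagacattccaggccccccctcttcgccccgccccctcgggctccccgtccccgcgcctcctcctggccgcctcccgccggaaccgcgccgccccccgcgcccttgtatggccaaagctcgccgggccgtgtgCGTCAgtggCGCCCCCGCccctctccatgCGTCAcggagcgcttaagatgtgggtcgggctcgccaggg
Over the 12 windows listed for the 8 members that matched by symbol, 8 held the CRE core on either strand, against 17.8% of all windows, 4 held a CArG box (all of Egr2), 2 held the EGR motif (4.70% of all windows), and 0 held the full CRE TGACGTCA (1.55%) or the AP-1 motif TGANTCA (6.75%). The Egr2 windows with the core overlap and share the same sites, so by gene 6 of the 8 members held the core. The full CRE contains the core. Egr1 and Ier2 had no entry. A match is a description of letters and not of a bound site.

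Ier2, a small nuclear protein induced early in growth responses, gave 2890 and 2057 in necdin null and 3200 and 2388 in wild type replicates 1 and 2. Both replicate 2 arrays were below both replicate 1 arrays, the reverse of Fos. The log2 difference by genotype was -0.18 with a standard error of 0.24 (interval -0.72 to 0.36). By replicate number it was -0.46 with a standard error of 0.16 (interval -0.83 to -0.08, unadjusted p = 0.023, limma adjusted p = 0.51). It was -0.49 within necdin null and -0.42 within wild type cells, and between -0.56 and -0.35 without each array in turn, and the adjusted p over all alternatives ranged from 0.16 to 0.9995.

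With limma, 0 of the 7 members that passed the filter were called between genotypes (0% of 12680 genes were called), and 0 had an unadjusted p under 0.05, against 3.02% of all genes tested. Their median log2 difference was -0.11, with 1 member higher and 6 lower, beside -0.031 over all genes tested. That median was 0.089 without necdin null replicate 1 and 0.030 when wild type replicate 1 was left out. No direction by genotype held for any of the 10: each difference had the opposite sign when at least 1 of the 4 arrays was left out. None of the 7 had a difference of at least 2-fold without overlap, beside 3.1% of genes tested. The 95% intervals of Fos, Jun, Junb and Nr4a1 include a 2-fold difference, which these arrays therefore do not exclude. For a single gene, permuting 2 arrays against 2 exactly allows no two-sided p smaller than 0.333. Unlike the median of the members, neutrophil markers were higher in necdin null cells for 11 of 12 genes (median 0.43). None had an unadjusted limma p under 0.05, and their part in the differences of the members was not tested.

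By replicate number, 0 of the 7 members passed over all genes (0.00789% of genes were called, the single gene being Rsrp1, named after its value was seen). At an unadjusted p under 0.05 there were 2 of 7, Fos and Ier2, against 8.82% of all genes tested. The replicate numbers did not overlap for 2 of the 7, beside 40.6% of all genes tested (19.5% higher and 21.1% lower on the replicate 2 arrays). None of the 7 had a difference by number of at least 2-fold without overlap, beside 4.8% of genes tested. Of the 3 members below the filter, Egr2 also had numbers that did not overlap, at 3.07 and 3.62 against 5.14 and 89.4, which makes 3 of 10 beside 38.7% of genes without the filter. The median log2 difference of the 7, replicate 2 minus replicate 1, was 0.10, beside -0.011 over all genes. It was -0.20 without necdin null replicate 2, 0.33 when wild type replicate 1 was left out, -0.019 when necdin null replicate 1 was, and -0.018 with median centring. Fos and Ier2 kept their direction by number without each array in turn. That follows from their lack of overlap by number and adds nothing to it. Egr2 did so only in sign: its difference of -2.01 was -0.32 without necdin null replicate 1, between signals near background. The other 7 did not keep it.

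**Figure D3:**
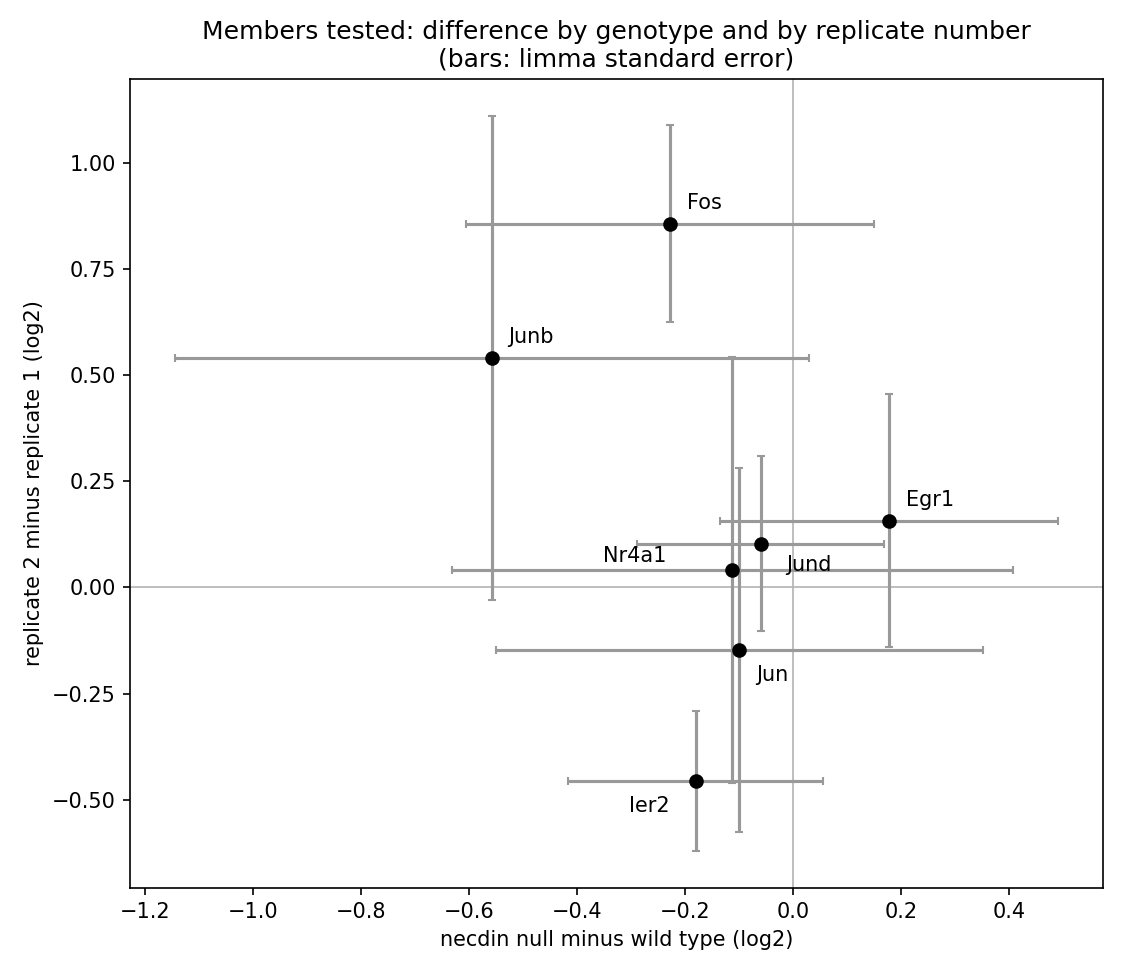
Log2 difference by genotype (horizontal axis, necdin null minus wild type) and by replicate number (vertical axis, replicate 2 minus replicate 1) of the 7 members that passed the filter, with limma standard errors as bars. Fos (0.86) and Ier2 (-0.46) lie away from 0 on the vertical axis by more than their standard errors, while every member lies within 1 standard error of 0 on the horizontal axis.

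With 4 arrays in a layout of 2 genotypes by 2 replicate numbers, the variation of each gene divides into a share for genotype, a share for number and a remainder, in which necdin null replicate 1 and wild type replicate 2 stand together against the other arrays. The genotype share was the largest for 0 of the 10 genes, against 30.5% of tested genes. The number share was the largest for 3 (Fos 92.9%, Ier2 86.0% and Egr2 41.5%), against 40.6% of tested genes. The remainder was the largest for 7, against 28.9% of tested genes: Nr4a1 (97.95%), Jun (89.7%), Jund (88.7%), Egr1 (83.3%), Atf3 (79.6%), Fosb (60.2%) and Junb (51.2%). Of the 10, Egr2, Fosb and Atf3 lie below the filter and are outside the tested genes that these percentages cover. The median share of genotype was 11.5% over the 10 genes and 23.4% over all genes tested. The 10 genes were chosen as a class and not as independent genes, so these counts are given as a description.

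The remainder was no common movement of the 7 genes. On the mean of necdin null replicate 1 and wild type replicate 2 minus that of the other arrays, Atf3 (2.25), Fosb (1.42), Junb (0.80) and Jund (0.34) were higher on the log2 scale, whereas Nr4a1 (-0.83), Egr1 (-0.53) and Jun (-0.52) were lower, and the second Jun probe set ran against the first. The same arrays were those that held signal of both sexes: Xist was 4841 and 7182 there with the Y-linked Eif2s3y at 2273 and 1974, while necdin null replicate 2 had 76.8 and 2987 and wild type replicate 1 had 9930 and 32.6. The part of this in the levels of the 7 genes was not tested.

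A single array took a larger share of the variation than each of genotype, number and the remainder for 3 genes. The contrast of 1 array with the mean of the other 3 took 99.2% of the variation of Egr2 (necdin null replicate 1), 96.7% of that of Junb (wild type replicate 2) and 91.5% of that of Fosb (wild type replicate 1, low). That contrast, the best of 4, exceeded the genotype, number and remainder shares for 61.1% of all tested genes. Among the members that were tested it did so for 1 of 7. No array was extreme for the group as a whole: necdin null replicate 1 held the highest value of 3 members and the lowest of 2, necdin null replicate 2 of 1 and 2, wild type replicate 1 of 3 and 3, and wild type replicate 2 of 3 and 3.

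**Figure D4:**
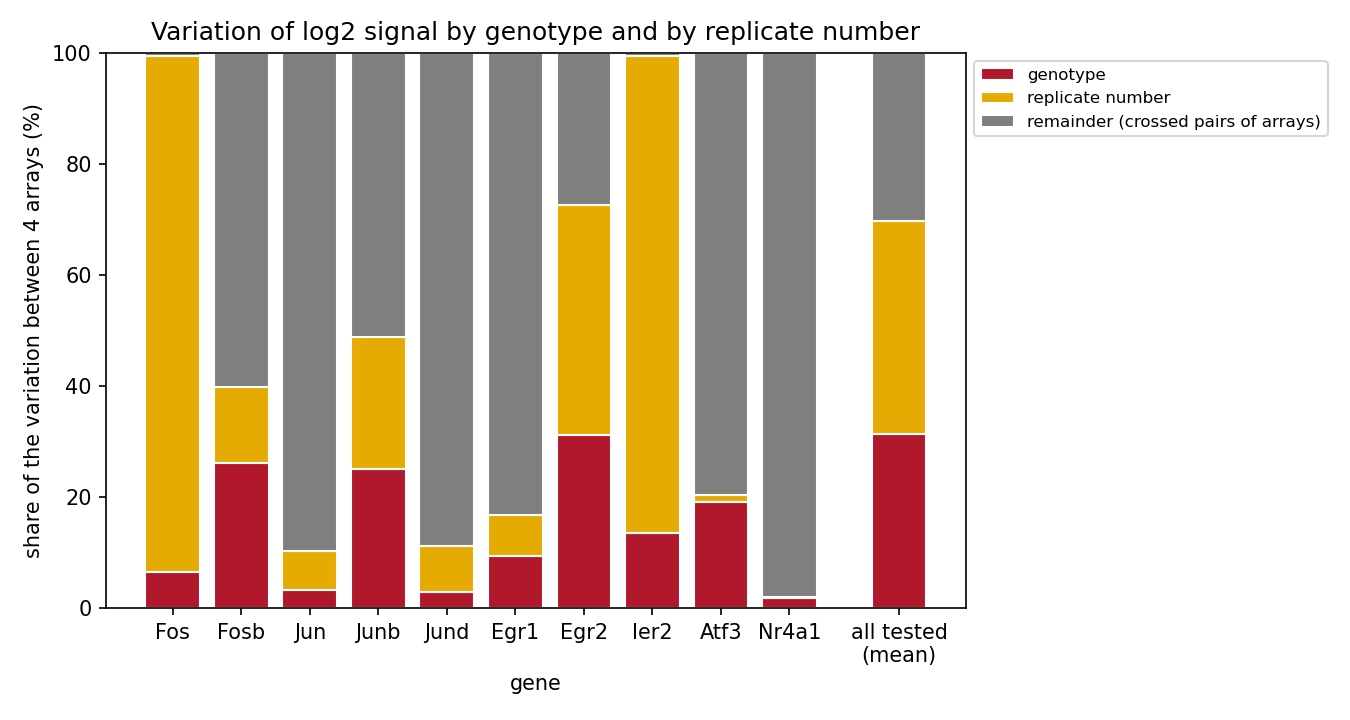
Share (%) of the variation of log2 signal between the 4 arrays that fell to genotype, to replicate number and to the remainder, for the main probe set of each member and as the mean over 12680 tested genes (31.4%, 38.4% and 30.2%). Fos and Ier2 are mostly number, Nr4a1 and Jun mostly remainder, and no member is mostly genotype.

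Other early response genes, a list of AP-1 relatives, EGR and NR4A paralogues, KLF factors, phosphatases and feedback inhibitors, had 41 of 50 entries tested (48 on the array). With limma 0 were called between genotypes, 17 were higher and 24 lower, and the median log2 difference was -0.047. Genotypes did not overlap for 13 of the 41 (6 higher, 7 lower), beside 12.8% higher and 17.7% lower over all genes tested. The members of smallest p were Fosl2, a FOS relative, at 435 and 185.4 in necdin null replicates 1 and 2, under the 681 and 671 of wild type (log2 difference -1.24, standard error 0.40), and Nab1, a corepressor of EGR proteins, at 3697 and 3753 against 2211 and 2749 (0.59, standard error 0.19). The MAP kinase phosphatases Dusp6 (-0.57, standard error 0.27) and Dusp1 (0.43, standard error 0.21) followed. Their limma adjusted p was 0.999 each.

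By replicate number 0 of the 41 were called, with a median log2 difference of -0.020, 19 higher and 22 lower. Cd69, an early activation antigen, had 1016 and 765 on the replicate 1 arrays and 1253 and 1594 on the replicate 2 arrays (0.68, standard error 0.22). Rhob, a small GTPase induced by genotoxic stress, had 0.62 with a standard error of 0.21. Nfkbiz, a nuclear regulator of NF-kappaB, had 1.28 with a standard error of 0.43. Klf10, a TGF-beta early response gene, was lower on the replicate 2 arrays (-0.56, standard error 0.17), the direction of Ier2. Limma adjusted p was between 0.43 and 0.49 for these genes. The paralogues of the members gave no common pattern: over necdin null replicates 1 and 2, then wild type replicates 1 and 2, Nr4a3 had 145.9, 70.3, 19.8 and 71.8, Nr4a2 had 41.0, 143.8, 130.0 and 105.8, and Egr3 had 98.9, 105.4, 55.1 and 139.9 (named after their values were seen).

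Upstream kinases and factors, which carry signals to the promoters of early genes, had 19 of 28 entries tested. The median log2 difference was 0.055 by genotype (11 higher, 8 lower) and 0.0018 by number (10 higher, 9 lower), with 0 called in either. Crem, a CRE-binding modulator, read 146 and 127 in necdin null, under the 188 and 521 of wild type cells (-1.18, standard error 0.50), where wild type replicate 2 stood apart. Mrtfa, a cofactor of serum response factor, had -0.47 with a standard error of 0.27. The serum response factor partners Elk1 (1.41, standard error 0.96) and Elk3 (-0.31, standard error 0.23) overlapped between genotypes. By number, the kinases Rps6ka5 (-0.61, standard error 0.18) and Mapk9 (-0.47, standard error 0.18), Map2k1 (0.48, standard error 0.20) and the factor Elk4 (-0.40, standard error 0.20) had the smallest p.

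Heat shock genes, which like Fos can respond to handling, had 11 of 13 entries tested and 0 called in either comparison. By number 9 were higher and 2 lower on the replicate 2 arrays, with a median log2 difference of 0.40, beside -0.011 over all genes tested; 5 of the 11 were higher without overlap, beside 19.5% of all genes, and Hspe1 and Bag3 were lower without overlap, beside 21.1%. Necdin null replicate 2 stood apart in the summed signal of the 11, with 130216 against 87690, 91711 and 98307 on necdin null replicate 1 and wild type replicates 1 and 2. Much of that sum was Hspa8 (60312 there, 33449 to 39818 elsewhere) and Hsp90aa1 (29612 there, 19645 to 22959 elsewhere). Dnajb1, Dnaja1 and Hspd1 were also highest on necdin null replicate 2. Hspa1a, Hspa1b, Hsph1 and Hspb1 were highest on wild type replicate 2, and Hspe1 and Bag3 on wild type replicate 1. The median deviation from each gene's own mean was 0.25 on necdin null replicate 2 and -0.0096 on wild type replicate 2. Hsph1 had 1639 and 1773 on the replicate 1 arrays and 2429 and 3090 on the replicate 2 arrays (0.68, standard error 0.18). Hspb1 had 0.84 (standard error 0.32) and Hspa1a 0.80 (standard error 0.35), while the cochaperone Bag3 was lower (-0.70, standard error 0.30). By genotype the median was 0.011. Hspa1b, an inducible HSP70, gave 165 and 405 in necdin null replicates 1 and 2, under the 540 and 962 of wild type (-1.47, standard error 0.45, limma adjusted p = 0.999). Hspa1a, also an inducible HSP70, did not share that difference (-0.0032, standard error 0.46). After Hspa1b, Hspd1 (0.29), Dnaja1 (0.23) and Hsph1 (-0.23) came next by p.

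**Figure D5:**
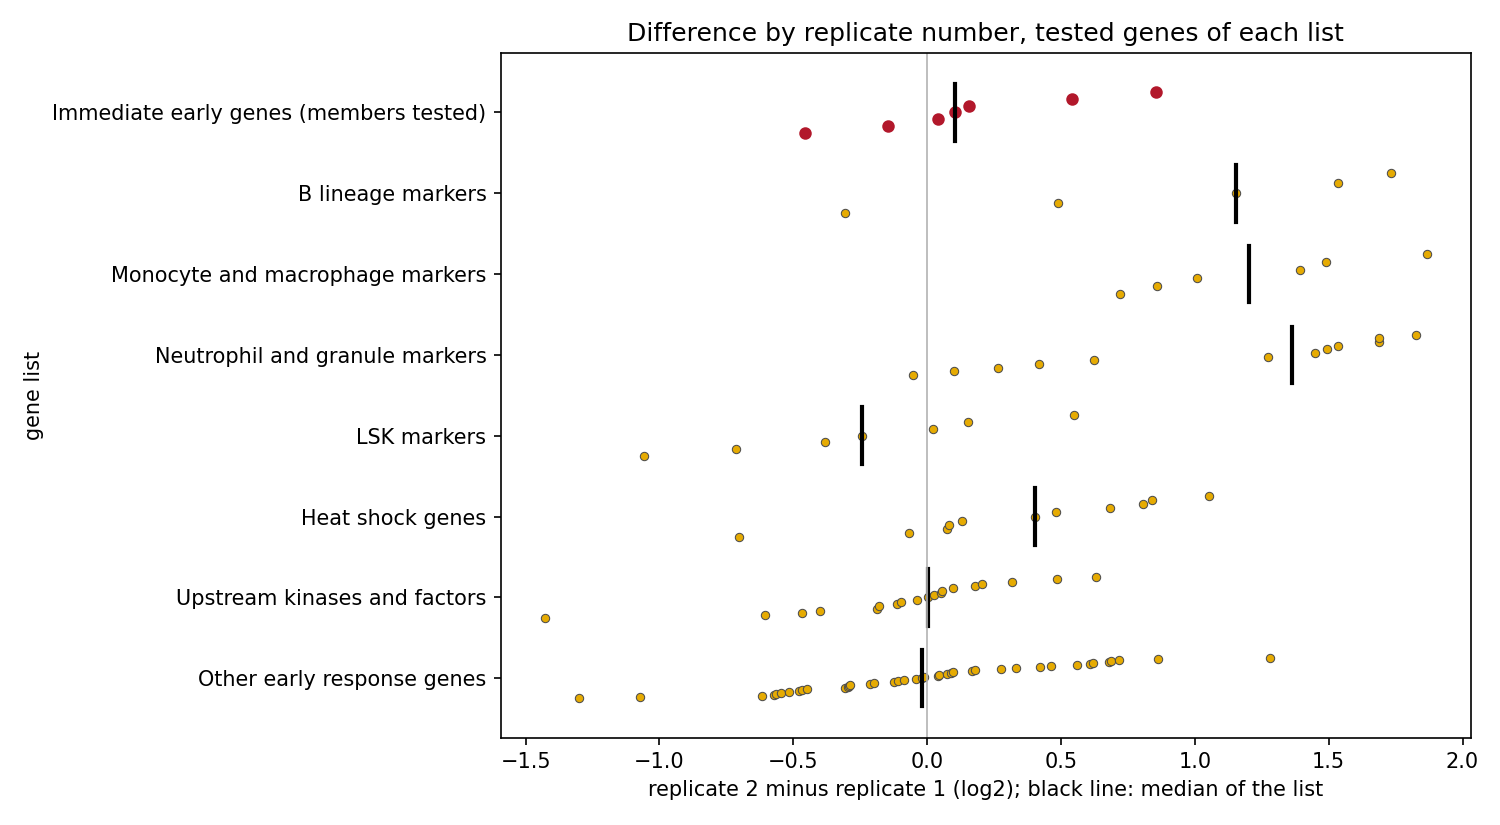
Log2 difference, replicate 2 minus replicate 1, of each tested gene in 7 lists and of the 7 tested immediate early genes; black lines are medians. The immediate early genes spread on both sides of 0 around a median of 0.10, while neutrophil (1.36), monocyte (1.20) and B lineage (1.15) markers lie mostly above 0.

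Markers of other cell types moved with the replicate number along which Fos and Ier2 differed. Of 12 neutrophil and granule markers 11 were higher on the replicate 2 arrays, with a median log2 difference of 1.36. Their summed signal was 98810 and 77229 on the replicate 1 arrays of necdin null and wild type and 202262 and 139091 on the replicate 2 arrays. Ltf, which encodes the granule protein lactoferrin, had 1959 and 1186 against 6374 and 4591. All 6 tested monocyte and macrophage markers were higher (median 1.20; summed signal over the 7 on the array 9124 and 7314.5 against 16579 and 14890), as were 4 of 5 tested B lineage markers (median 1.15; summed signal over the 6 on the array 1135 and 1149 against 1450 and 2224). None of these markers was at 0, and Cd14 and Cd79a were below the filter. Hlf, a stem cell transcription factor, went the other way, with 4997 and 6110 on the replicate 1 arrays and 2674 and 2637 on the replicate 2 arrays, as did Kit. The LSK list as a whole was mixed (3 higher, 4 lower, median -0.25). Megakaryocyte markers were lower for 4 of 5 (median -0.42), 2 tested T and NK markers were split 1 and 1 (median 1.09), 3 erythroid markers had a median of -0.073, and 4 stromal and endothelial markers a median of 0.22. None of these genes passed over all genes (limma adjusted p = 0.098 at the lowest).

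Measures of the RNA and the arrays moved with the replicate number too. The 3' to 5' ratio was 15.8 and 11.7 on the replicate 2 arrays against 10.96 and 9.96 on the replicate 1 arrays for Gapdh, and 14.5 and 12.4 against 9.21 and 9.97 for Actb. The hybridization controls, bacterial and phage transcripts added to the labelled cRNA, had a geometric mean signal of 7197 and 6328 on the replicate 2 arrays and 4276 and 4717 on the replicate 1 arrays. The part of the marker signal, the RNA measures and the controls in the Fos and Ier2 differences was not tested, and in bulk RNA fewer cells of a type and less RNA per cell cannot be told apart.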

How the data were processed

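Labelled cRNA of sorted LSK cells was hybridized to Affymetrix arrays, per the labels' protocols. The authors deposited 1 intensity value per probe set, made with MAS5 per the submitters' processing notes (version not given in the sources used here). On each array the mean after trimming 2% at each end was 500.004, and the median signal was 53.7 to 63.2. The platform annotation gave the names: of 45101 probe sets, 34958 had 1 gene symbol, 932 several and 9211 none. Promoter sequences are RefSeq's (GRCm38.p6).

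To each signal a pseudocount of 3.80 was added, the 10th percentile over the arrays, before log2 was taken; this shrinks log2 differences of weak probe sets. The MAS5 scaling was kept. Genes whose main probe set had a mean log2 value of at least 5.09, the 40th percentile, were tested (12680 genes). Genotype, and separately the replicate number of the titles, was fitted with limma 3.58.1 in R 4.3.3 (lmFit, then eBayes with trend; two-sided p-values with Benjamini-Hochberg adjustment over the tested genes, threshold 0.05). Both fits were run on simulated arrays with known changes, to check only the sign and size of the fitted differences. Error rates and power were not part of that check. Shares of variation are sums of squares on the log2 scale with no test.

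The members and lists were chosen with earlier results of these data known. Named are the 10 members with every probe set, Ndn, up to 4 genes of smallest p per list and comparison, and the 5 genes nearest to Fos. Others are said to be named after their values were seen, or are cell type markers. The sex-linked genes Xist and Eif2s3y were outside these lists and were read as a description of the arrays. Alternatives changed the pseudocount (1 or 16), filter, normalization, variance model, probe sets or call rule, added a block, or left out each array.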

Additional observations from a re-analysis of the deposited data

How the results depend on the processing

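The count of called members by genotype, 0, stayed 0 under every alternative run. Over all genes it was 0 by limma; it was 3 with the replicate block, 383 at an unadjusted p under 0.05, 393 by a rule of 2-fold without overlap, and 0 to 4 when leaving out 1 array. By replicate number the count over all genes, 1, was 11 with the 60th percentile filter, 22 with median centring, 0 without the intensity trend, 28 with genotype as a block, 1119 at an unadjusted p under 0.05, 609 by that fold rule, and 15 to 390 when leaving out 1 array; the cause was not tested. The count of members by number, 0, was 2 at an unadjusted p under 0.05. The median difference by number lay between -0.20 and 0.33 when leaving out 1 array. The replicate numbers were not treated as pairing: across genes the differences between replicates 2 and 1 in the 2 genotypes correlated at 0.11, with only 2 pairs.

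Genotype differences changed sign with the mean of all probe sets for Jun (0.090) and Jund (0.35), with the other probe set for Jun (0.28) and Jund (0.76), and, when leaving out 1 array, ranged from -0.69 to 0.23 for Fos, -0.44 to 0.24 for Jun, -1.23 to 0.11 for Junb, -0.28 to 0.16 for Jund, -0.17 to 0.52 for Egr1, -0.43 to 0.064 for Ier2 and -0.55 to 0.32 for Nr4a1. Number differences changed sign with the mean of all probe sets for Jun (0.078) and Jund (-0.082), with the other probe set for Jun (0.30) and Jund (-0.27), with median centring for Jund (-0.018) and Nr4a1 (-0.080), with quantile normalization for Nr4a1 (-0.00083), and, when leaving out 1 array, ranged from -0.46 to 0.16 for Jun, -0.14 to 1.22 for Junb, -0.095 to 0.30 for Jund, -0.20 to 0.51 for Egr1, -0.43 to 0.51 for Nr4a1 and, among the untested genes, -1.40 to 1.95 for Atf3 and -0.50 to 1.86 for Fosb. The genotype share was the largest for 1 member with the mean of all probe sets. Shares of variation could not be computed with an array left out. Fosb and Atf3, below the filter, also depended on the pseudocount: with 16 the genotype differences went from 0.94 to 0.57 and from 1.10 to 0.59, and the number differences from 0.68 to 0.37 and from 0.28 to -0.036; for Egr2 they went from 1.75 to 1.18 and from -2.01 to -1.29. Detection calls were not used.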

Other observations

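The genes whose deviations from their own 4-array mean lay nearest to those of Fos, by Euclidean distance over the 4 arrays on the log2 scale among the genes tested, were Pmel (distance 0.084), Notch1 (0.093), Lif (0.094), Dgat1 (0.095) and Slc11a1 (0.10). Notch1, a receptor of lymphoid fate decisions, gave 782 and 1435 in necdin null and 949 and 1680 in wild type replicates 1 and 2, and Pmel, a melanosome protein, gave 510 and 913 against 553 and 1038. Lif, a cytokine, had signals near the filter (25.5 to 54.7). With 4 arrays such a likeness is a description.

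Gadd45b, a stress-induced gene of the early response list, named after its values were seen, had 161 and 163 on the replicate 1 arrays of necdin null and wild type and 299.7 and 295 on the replicate 2 arrays (log2 difference 0.86, standard error 0.33, limma adjusted p = 0.52).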
